A study of Mus musculus with 12 samples.

Results

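The heat shock, chaperone and endoplasmic reticulum (ER) stress genes described here are 39 genes of protein folding and its control, chosen by name from what their proteins do, out of the 38293 genes counted in the series. They comprise 12 cytosolic chaperones and co-chaperones, 3 mitochondrial chaperones, 6 small heat shock proteins, 12 ER chaperones and folding enzymes, and 6 stress regulators. RNA was sequenced from 12 mouse hearts, 3 in each of 4 groups. WT sham and WT IR were wildtype mice of the strain C57Bl/6J (the titles of the sham samples read C75Bl/6J), and the latter had ischaemia–reperfusion (IR) injury, in which the left anterior descending artery is tied for 1 h and then released, and were taken 14 days later. Zeb2 WT IR and Zeb2 cTg IR were C57Bl/6J littermates that all had IR and were taken after 14 days as well. Zeb2 cTg mice carry a Rosa26-LoxStopLox-Zeb2 transgene that is switched on by Cre recombinase under the αMHC (Myh6) promoter, which is active in cardiomyocytes. The study's methods give mice of 8 to 9 weeks. Their general section on mice names male and female mice, and their section on the transgenic lines names male mice only. The sources differ on the tissue and the kit: the methods give the remote zone and total RNA, the sample records left ventricle and an mRNA library, and the series design infarcted and border tissue. Which of these applies is not settled by the sources used here.

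Chaperones bind unfolded or damaged proteins and help them reach their folded state. In the cytosol, heat shock factors such as HSF1 switch on HSP70, HSP40 and small heat shock protein genes when unfolded protein accumulates. In the ER, the sensors ATF6, IRE1 (which splices Xbp1) and PERK (which acts through ATF4 and CHOP, the product of Ddit3) raise chaperones such as BiP, the product of Hspa5. Cardiomyocytes hold large amounts of small heat shock proteins, of which αB-crystallin (Cryab) binds desmin and titin filaments, and mutations in CRYAB and BAG3 cause inherited myopathies.

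The depth behind the values was between 20215781 and 36816818 counts per library, of which 5706340 to 11618213 fell on genes outside the mitochondrial genome. Levels are given in CPM, counts per 1e+06 counts after TMM scaling of the libraries, and 1 CPM stood for 17.2 to 37.8 counts. Differences were tested within each of the 2 deposited tables with edgeR's quasi-likelihood test, and a gene is called higher or lower where its p-value adjusted over all genes tested (Benjamini-Hochberg) was under 0.05. With 3 libraries against 3, an exact permutation test of a single gene cannot give a two-sided p below 0.1, so no such test is printed. Zeb2 itself, the check of the labels, had 55.5, 56.9 and 58.7 CPM under the Zeb2 cTg IR label and 54.7, 57.8 and 67.0 CPM in Zeb2 WT IR (log2 fold change -0.069, SE 0.12, edgeR adjusted p = 0.750). The groups overlapped, so this group is called the Zeb2 cTg-labelled libraries throughout, and every direction drawn from it rests on the label. The paper reports more Zeb2 mRNA by qPCR and more ZEB2 protein by staining in Zeb2 cTg hearts than in their littermates. Whether reads of the transgene were counted on the Zeb2 gene was not tested. In WT IR, Zeb2 had 59.1, 80.8 and 74.6 CPM against 49.0, 49.9 and 55.9 CPM in WT sham, which is higher (log2 fold change 0.47, SE 0.12, edgeR adjusted p = 0.0219).

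The genes spanned a wide range of levels in WT sham, compared here as CPM per kilobase of merged exons. Cryab stood highest at 214 ± 17.1 CPM per kilobase (mean ± SD, n = 3). It was followed by Hspb7 (158 ± 7.24), Hsp90ab1 (106 ± 12) and Hspb8 (91.9 ± 2.51). Hspb7 and Hspb8 are, like Cryab, muscle small heat shock genes, and Hsp90ab1 is the constitutive cytosolic HSP90. Hspb6 had 59.0, the mitochondrial HSP70 Hspa9 53.8, BiP (Hspa5) 41.8, the ER lectin chaperone Canx 35.4 and the constitutive HSP70 Hspa8 35.1 CPM per kilobase. At the other end stood the stress-inducible HSP70 genes Hspa1a at 0.117 ± 0.054 and Hspa1b at 0.0921 ± 0.0488 CPM per kilobase, which do not differ beyond their spread, and the pseudokinase gene Trib3, a target of ATF4, at 0.234 ± 0.0285. By class, the median of the members' levels was 75.5 CPM per kilobase for the small heat shock proteins, 18.3 for the mitochondrial chaperones, 9.83 for the ER members, 4.38 for the regulators and 3.19 for the cytosolic chaperones. For some of these genes, part of the reads cannot be placed on 1 gene with certainty. If such reads were left out of the counts, these levels are too low. Of the 75-base stretches (the read length) of the longest annotated transcript, 54.2% in Hspa1a, 55.8% in Hspa1b, 53.1% in Hsp90aa1, 47.3% in Hspb1, 40.9% in Hspa8, 33.7% in Hspd1 and 16.6% in Dnaja1 also occur in another annotated gene, a paralog or a pseudogene, and the values of these 7 genes are uncertain to that extent. Annotated genes also overlap Cryab (Hspb2), Hspd1 (Hspe1), Ddit3 (Mars) and Hspb6 (Proser3 and Lin37) on the opposite strand and Bag3 (2610306O10Rik) on the same strand. Reads there may be split, shared or left out.

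**Figure D1:**
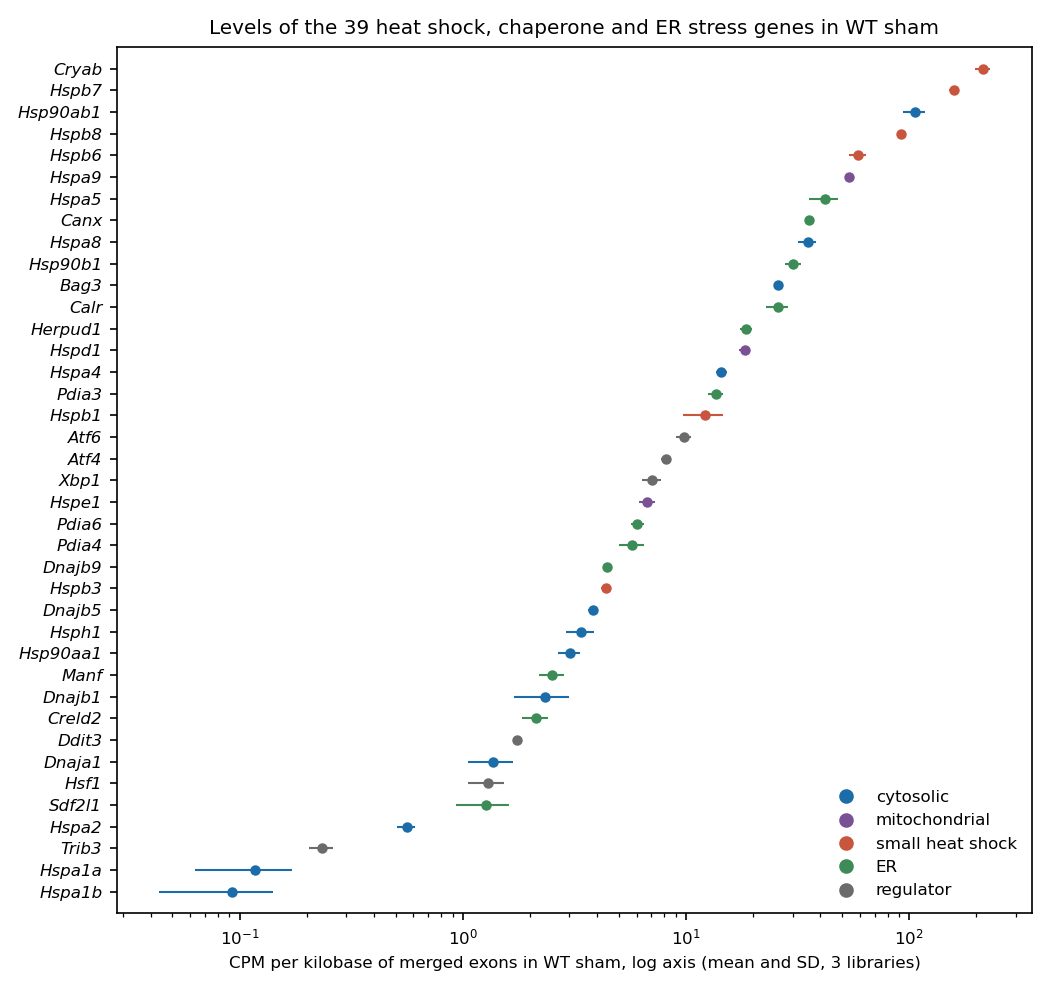
Level of each of the 39 genes in WT sham on a log axis, in CPM per kilobase of merged exons; points are means of 3 libraries, bars are SD and colours are the classes. Cryab, Hspb7 and Hsp90ab1 are at the top, and Hspa1a and Hspa1b are at the bottom at 0.117 and 0.0921 CPM per kilobase.

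The promoter sequences of the members, taken from RefSeq (GRCm38.p6, 250 bases before to 50 after the start site), were available for 31 of the 39 genes; Hsf1, Hsp90ab1, Atf6, Hsp90aa1, Hspa9, Hspa8, Cryab and Manf had no entry. The letters of 2 units of a heat shock element, the site HSF1 binds, are GAA and TTC 2 bases apart, which read the same on both strands. They occurred in 11 of the 31 promoters (Hspa1a, Hspa1b, Hsph1, Dnaja1, Bag3, Hspd1, Hspe1, Hspb1, Hspb3, Hspb6 and Hspb8) and in 7.86% of all 32851 promoters of this length in the table, or 9.04% of 27025 genes. The windows below, with the motif in capitals and 15 bases on each side, are those of the inducible HSP70 pair and of 4 of the members that are called in a comparison. The Hspa1a and Hspa1b windows (chr17:34972238-34972275 and chr17:34959320-34959357, minus strand) are the same letters, so 1 is shown. Hspb1 has a pair of sites (chr5:135887787-135887824 and chr5:135887807-135887844, plus strand), and Hspd1 shares its site (chr1:55088049-55088086, shown on the minus strand) with Hspe1, which is transcribed in the other direction. Hsph1 (chr5:149636273-149636310, minus strand) and Hspb6 (chr7:30553166-30553203, plus strand) follow.
Hspa1a and Hspa1b: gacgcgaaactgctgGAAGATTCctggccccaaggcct
Hspb1, site 1: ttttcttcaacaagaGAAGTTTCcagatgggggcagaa
Hspb1, site 2: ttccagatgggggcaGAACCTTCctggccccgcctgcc
Hspd1: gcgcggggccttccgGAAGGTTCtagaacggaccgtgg
Hsph1: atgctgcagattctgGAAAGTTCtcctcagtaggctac
Hspb6: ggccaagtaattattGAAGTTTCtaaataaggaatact

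Other letters mark ER members. The ER stress response element, bound by ATF6 with NF-Y, was searched on both strands as CCAAT and CCACG 9 bases apart. It occurred in 6 of the 31 promoters, all of ER members (Hspa5, Hsp90b1, Calr, Canx, Pdia6 and Creld2), and in 0.119% of all promoters, or 0.137% of genes. A related element, ATTGG and CCACG 1 base apart, occurred in Herpud1 alone among the members and in 0.0365% of all promoters. No member held both elements. The windows of Hspa5 (chr2:34772010-34772058, plus strand), Canx (chr11:50325785-50325833, minus strand), Creld2 (chr15:88819505-88819553, plus strand) and Herpud1 (chr8:94386362-94386402, plus strand) show them, with the whole element in capitals; in Creld2 it is read on the other strand.
Hspa5: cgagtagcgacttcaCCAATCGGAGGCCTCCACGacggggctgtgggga
Canx: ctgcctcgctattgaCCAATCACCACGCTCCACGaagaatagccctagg
Creld2: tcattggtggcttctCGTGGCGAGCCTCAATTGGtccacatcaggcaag
Herpud1: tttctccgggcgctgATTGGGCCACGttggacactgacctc
The letters CAGGTG, an E-box that ZEB2 can bind, were in the promoters of 5 of 31 members (Dnajb1, Hsp90b1, Dnajb9, Xbp1 and Atf4) and in 20.2% of all promoters, or 22.6% of genes. These matches describe letters only.

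The first comparison, WT IR against WT sham, asks how hearts taken 14 days after injury differ from sham hearts. The labels give no day for the sham hearts. Of the 39 genes, 38 passed the filter on low counts and were tested, all but Hspa1b. Chaperones of the cytosol, mitochondria and filaments were lower where they were called, and 1 regulator was higher. The 7 genes called lower were Hsph1, Dnajb1, Dnajb5, Bag3, Hspd1, Hspb6 and Cryab, and the gene called higher was Trib3. These 8 of 38 (21.1%) are close to the 20.8% of all 13756 genes tested that were called in either direction, where 11.0% were called higher and 9.74% lower. The groups did not overlap in 14 of the 38 genes (36.8%), near the 39.8% of all genes. The median log2 fold change of the 38 was -0.16, against 0.0064 for all genes tested. These are bulk tissue values, in which fewer cells of a type and less RNA per cell cannot be told apart.

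**Figure D2:**
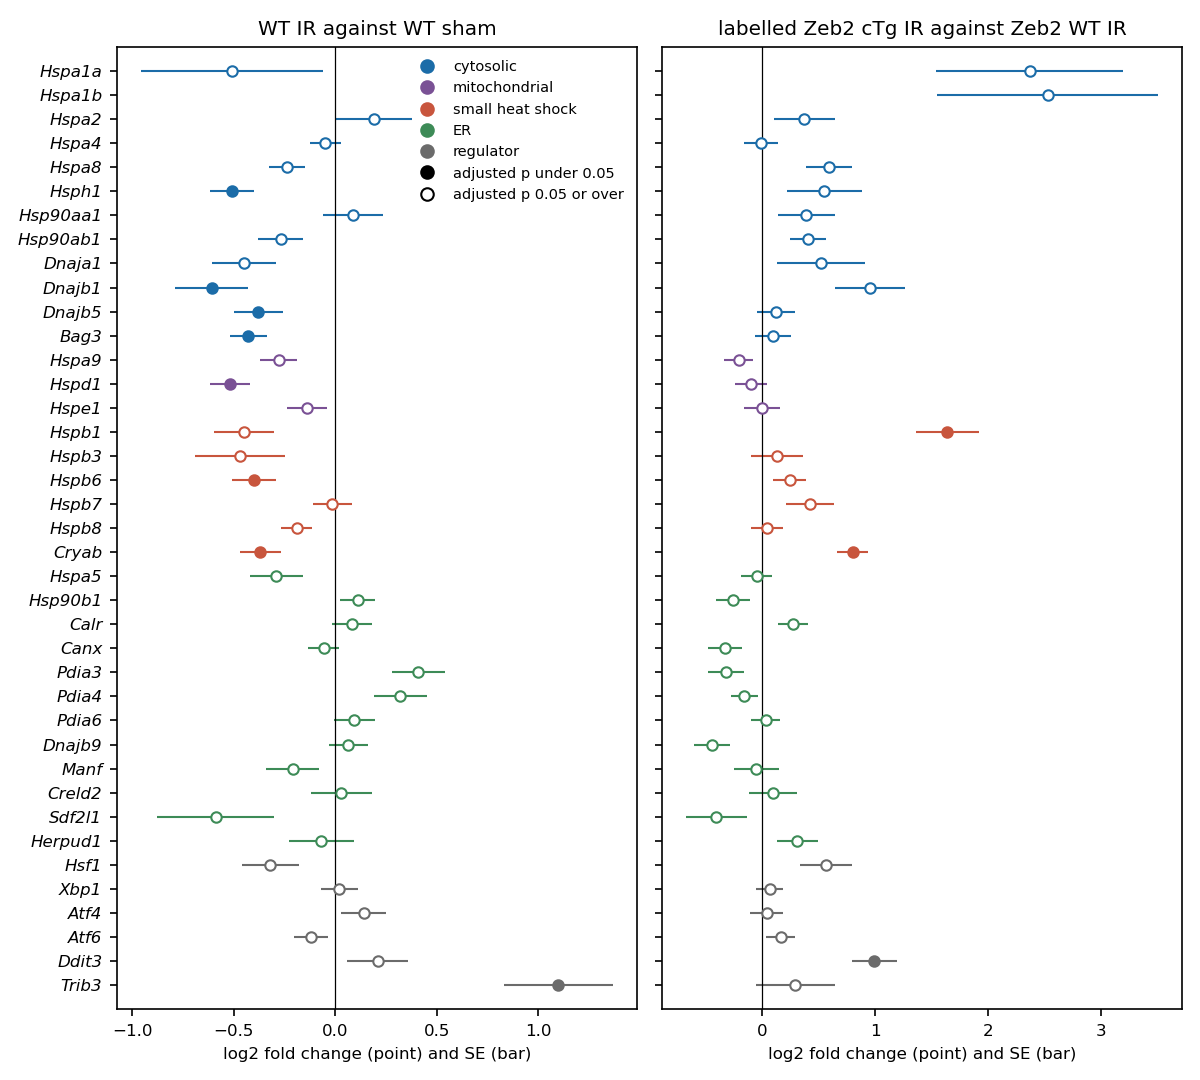
Log2 fold change (point) and SE (bar) of each gene, WT IR against WT sham on the left and the Zeb2 cTg-labelled libraries against Zeb2 WT IR on the right, on axes of different range; filled points have an adjusted p under 0.05 and colours are the classes. On the left the 7 filled points below 0 are cytosolic, mitochondrial and small heat shock genes and the filled point above 0 is Trib3; on the right the filled points are Hspb1, Cryab and Ddit3.

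In the cytosolic class, 4 of the 11 genes tested were called lower and none higher (0 at an unadjusted p under 0.05, and 0 by DESeq2 and by limma-voom), and the median log2 fold change was -0.38. Hsph1, the HSP110 that exchanges nucleotide on HSP70, had 18.7, 15.8 and 17.6 CPM in WT IR and 23.0, 28.7 and 22.1 CPM in WT sham. Its log2 fold change was -0.51 (SE 0.11, edgeR adjusted p = 0.0156), and the highest library was WT sham replicate 2. Dnajb1, the HSP40 that hands substrates to HSP70, had 5.50, 4.63 and 4.81 CPM against 6.28, 9.87 and 6.34 CPM. The groups did not overlap, but again WT sham replicate 2 stood above the others, and the log2 fold change of -0.61 (SE 0.18, edgeR adjusted p = 0.0414) was -0.35 (edgeR adjusted p = 0.149) without that library.

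Bag3, the co-chaperone that joins HSP70 to small heat shock proteins in the disposal of damaged filament proteins, had 55.7, 47.8 and 44.9 CPM in WT IR and 65.6, 68.5 and 65.2 CPM in WT sham. The sham libraries lay close together and all above the IR libraries, with a log2 fold change of -0.43 (SE 0.091, edgeR adjusted p = 0.0136). Dnajb5, another HSP40, had 20.8, 15.1 and 16.7 CPM against 24.0, 23.0 and 21.5 CPM (log2 fold change -0.38, SE 0.12, edgeR adjusted p = 0.0455). Here the nearest libraries of the groups differed by less than 1 CPM. The inducible HSP70 genes were near the limit of detection in all 6 libraries. Hspa1a had 0.281, 0.159 and 0.373 CPM in WT IR and 0.378, 0.491 and 0.175 CPM in WT sham, from 3 to 16 counts, and its log2 fold change was -0.51 (SE 0.45, edgeR adjusted p = 0.447). Hspa1b had 0.312, 0.238 and 0.447 CPM against 0.416, 0.184 and 0.175 CPM and was too low to be tested. With their counts summed into 1 feature, an alternative chosen after the data were seen because reads cannot be told apart between the pair, the log2 fold change was -0.11 (SE 0.36, edgeR adjusted p = 0.861), so a difference was not detectable at this depth. The sum does not bring back shared reads if these were left out of the counts. The other members tested, Hspa2, Hspa4, Hspa8, Hsp90aa1, Hsp90ab1 and Dnaja1, had log2 fold changes from -0.45 (Dnaja1) to 0.19 (Hspa2) and were not called.

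In 7 of the 11 cytosolic genes tested the highest of the 6 libraries was WT sham replicate 2, which was highest in 16.5% of all genes tested. Without it, no member of any class was called in either direction, and the median of the cytosolic class was -0.20. Over all genes, the share called went from 11.0% higher and 9.74% lower to 1.64% and 1.41% without this library. The members also had no call without WT IR replicate 2 (4.17% higher and 2.55% lower of all genes), 3 lower and 1 higher without WT IR replicate 3 (7.02% and 6.09%), and 15 lower and 3 higher without WT IR replicate 1 (18.4% and 17.6%). Without WT sham replicate 1 there were 6 lower (5.09% higher and 3.87% lower of all genes), without WT sham replicate 3 there were 5 (4.88% and 5.14%), and in both no member was higher. The log2 fold changes of the 8 called genes kept their sign in every one of these fits. With a correction for GC content there were 10 members lower and 1 higher, where 11.8% of all genes were lower and 8.63% higher.

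Of the mitochondrial chaperones, Hspd1 (HSP60), which folds proteins in the matrix, was called lower. It had 38.5, 32.8 and 29.9 CPM in WT IR and 45.9, 51.4 and 47.8 CPM in WT sham, with no overlap and a log2 fold change of -0.52 (SE 0.10, edgeR adjusted p = 0.0095). Its co-chaperonin Hspe1 (HSP10), the neighbour that shares its promoter and overlaps it on the other strand, had -0.14 (SE 0.10, edgeR adjusted p = 0.339), and Hspa9 had -0.28 (SE 0.091, edgeR adjusted p = 0.053). The class median was -0.28.

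All 6 small heat shock genes had a negative log2 fold change, with a median of -0.38, and 2 of them were called lower. Cryab had 266, 247 and 221 CPM in WT IR and 301, 345 and 302 CPM in WT sham (log2 fold change -0.37, SE 0.10, edgeR adjusted p = 0.0341). Hspb6, also known as HSP20, had 110, 110 and 89.5 CPM against 122, 140 and 145 CPM (log2 fold change -0.40, SE 0.11, edgeR adjusted p = 0.0301). In both genes every sham library lay above every IR library. Hspb1 (HSP25), which binds actin and intermediate filaments, had 10, 8.07 and 9.84 CPM in WT IR and 13.1, 14.8 and 9.78 CPM in WT sham, and its groups overlapped (log2 fold change -0.45, SE 0.15, edgeR adjusted p = 0.0593). Hspb3, Hspb7 and Hspb8 ranged from -0.47 (Hspb3) to -0.014 (Hspb7) and were not called.

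None of the 12 ER members was called in this comparison; at an unadjusted p under 0.05 there were 2, both higher, DESeq2 called 1 higher and limma-voom 0. The class median was 0.047. Hspa5 (BiP), the ER HSP70, had 168, 131 and 135 CPM in WT IR and 197, 185 and 147 CPM in WT sham, and the groups overlapped (log2 fold change -0.29, SE 0.13, edgeR adjusted p = 0.144). The smallest p-values belonged to a pair of disulfide isomerases. Pdia3, which works with the lectin chaperones on glycoproteins, had 46.2, 56.8 and 67.5 CPM against 44.6, 44.8 and 38.8 CPM (log2 fold change 0.41, SE 0.13, edgeR adjusted p = 0.0509). Pdia4 had 14.7, 17.2 and 20.1 CPM against 14.9, 14.7 and 11.8 CPM (log2 fold change 0.32, SE 0.13, edgeR adjusted p = 0.109). Only the groups of Pdia3 kept apart among these, and the other 9 ER genes ranged from -0.59 (Sdf2l1) to 0.11 (Hsp90b1).

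Trib3 had 0.875, 1.35 and 0.970 CPM in WT IR and 0.567, 0.460 and 0.466 CPM in WT sham, which is 26 to 51 counts against 8 to 15. This was 2.15-fold higher (log2 fold change 1.10, SE 0.27, edgeR adjusted p = 0.0226; DESeq2 adjusted p = 0.0501) with no overlap. Without WT IR replicate 2 or any 1 of the sham libraries it did not pass (edgeR adjusted p = 0.0583 to 0.118). The regulators upstream of it in the ER stress response were not called, with log2 fold changes of 0.14 for Atf4 (edgeR adjusted p = 0.389) and 0.21 for Ddit3 (edgeR adjusted p = 0.344). Hsf1, the master regulator of the heat shock genes, had -0.32 (SE 0.14, edgeR adjusted p = 0.128), and Xbp1 and Atf6 had 0.020 and -0.12 and were not called.

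**Figure D3:**
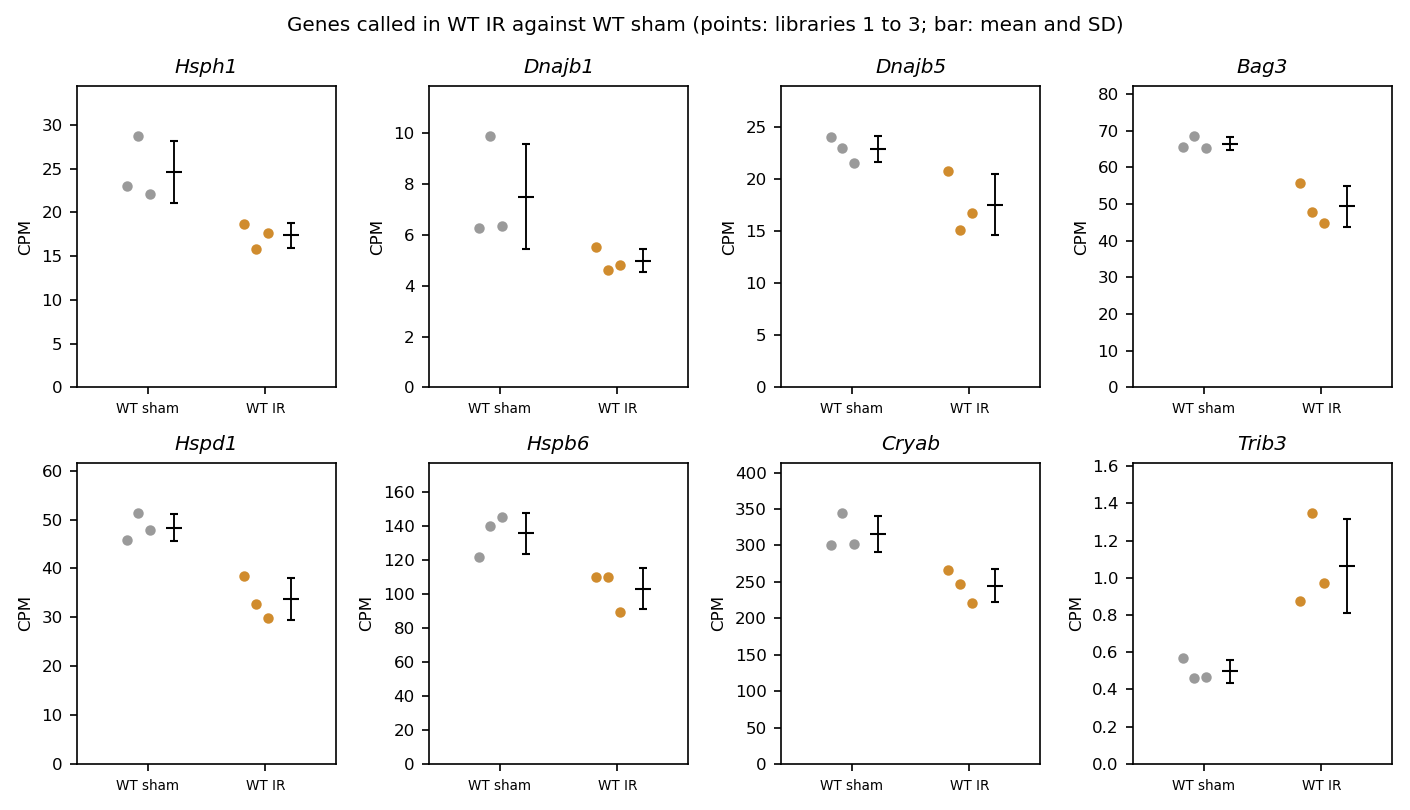
CPM of the 8 genes called in WT IR against WT sham; coloured points are the 3 libraries of each group in replicate order, and the black bars are mean and SD. In all 8 panels the groups do not overlap, and in Hsph1, Dnajb1, Bag3, Hspd1 and Cryab the highest point is WT sham replicate 2.

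A wider list of 101 proteostasis genes outside the 39, of which 100 matched an identifier, set these values in their pathways. Among other cytosolic chaperones and co-chaperones, 8 of 31 tested were called lower and 1 higher. Of all genes tested, 9.74% were called lower and 11.0% higher. WT sham replicate 2 was the highest library in 17 of these 31 genes, and in 16.5% of all genes tested. Fkbp4, an HSP90 co-chaperone that escorts steroid receptors, had 66.1, 49.3 and 47.5 CPM in WT IR and 88.6, 100 and 86.7 CPM in WT sham (log2 fold change -0.76, SE 0.13, edgeR adjusted p = 0.00655). Dnajb2, an HSP40, had 7.56, 5.98 and 6.71 CPM against 10.8, 10.9 and 9.89 CPM (log2 fold change -0.65, SE 0.11, edgeR adjusted p = 0.00672). Stub1, the ubiquitin ligase CHIP that marks HSP70 clients for disposal, had 13.1, 12.2 and 12.8 CPM against 18.0, 17.6 and 15.5 CPM (log2 fold change -0.43, SE 0.085, edgeR adjusted p = 0.0104). In all 3 genes every IR library lay below every sham library. The exception was Fkbp5, a glucocorticoid-induced relative of Fkbp4, with 8.0, 5.85 and 6.90 CPM against 4.27, 3.28 and 4.66 CPM (log2 fold change 0.78, SE 0.16, edgeR adjusted p = 0.013). Of the other mitochondrial chaperones and proteases, 4 of 12 were lower and none higher (1 at an unadjusted p under 0.05, and 0 by DESeq2 and limma-voom), among them the protease subunit Clpp and the disaggregase Clpb. Clpp had 9.69, 8.81 and 9.55 CPM against 13.8, 12.8 and 12.4 CPM (log2 fold change -0.48, SE 0.087, edgeR adjusted p = 0.00821), and Clpb had 25.6, 21.2 and 19.9 CPM against 31.4, 29.7 and 30.4 CPM (log2 fold change -0.45, SE 0.10, edgeR adjusted p = 0.0142). Of the 2 other small heat shock genes, Hspb2 was lower, with 11.2, 6.93 and 7.50 CPM against 13.2, 13.6 and 12.8 CPM (log2 fold change -0.63, SE 0.16, edgeR adjusted p = 0.0248).

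The wider ER list was called in the other direction, where 7 of 28 genes were called higher and none lower (1 at an unadjusted p under 0.05, and 0 by DESeq2 and limma-voom), with a median log2 fold change of 0.20. Of all genes tested, 11.0% were called higher and 9.74% lower. WT IR replicate 3 was the highest library in 21 of the 28 genes, and in 28.2% of all genes tested. Txndc5, an ER disulfide isomerase, had 21.8, 26.1 and 34.0 CPM in WT IR and 16.4, 14.6 and 16.4 CPM in WT sham (log2 fold change 0.79, SE 0.15, edgeR adjusted p = 0.00889). Dnajc10, an ER reductase that works with BiP, had 27.1, 30.2 and 34.0 CPM against 21.4, 21 and 21.2 CPM (log2 fold change 0.52, SE 0.092, edgeR adjusted p = 0.00748). Of the genes of stress signalling, 4 of 24 were higher (Asns, Mthfd2, Nupr1 and Creb3l2) and none lower (2 at an unadjusted p under 0.05, and 0 by DESeq2 and limma-voom). Asns, asparagine synthetase, had 1.56, 4.31 and 4.81 CPM against 0.757, 0.613 and 0.582 CPM (log2 fold change 2.43, SE 0.42, edgeR adjusted p = 0.00739). Mthfd2, a mitochondrial folate enzyme, had 1.47, 4.55 and 5.11 CPM against 0.794, 0.613 and 0.582 CPM (log2 fold change 2.46, SE 0.46, edgeR adjusted p = 0.00897). Both are known targets of ATF4, as is Trib3, and in both WT IR replicate 1 lay nearest to the sham libraries. Atf4 itself was not called. No other gene of this list was called, and of the 24 tested, 17 had a positive and 7 a negative log2 fold change. Without WT sham replicate 2 none of the wider genes given here with their values passed, with edgeR adjusted p from 0.0501 for Dnajb2 to 0.108 for Hspb2, and without WT IR replicate 2 Stub1 (0.0541), Clpb (0.0683) and Hspb2 (0.0971) did not pass.

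Markers of other cell types differed between these groups, in a comparison where 11.0% of all genes tested were called higher and 9.74% lower. Of 10 fibroblast markers, 9 were called higher in WT IR, and their summed level was 1983 to 4971 CPM against 553 to 1005 CPM in WT sham. Of 10 macrophage markers, 8 were higher, with 233 to 441 CPM against 159 to 177 CPM. Of 22 cardiomyocyte markers, 6 were lower and none higher (0 at an unadjusted p under 0.05, and 0 by DESeq2 and limma-voom), with 51712 to 66233 CPM against 66355 to 72875 CPM and a median log2 fold change of -0.24. Endothelial markers gave 0 calls in 10 (3 at an unadjusted p under 0.05, and 0 by DESeq2 and limma-voom), smooth muscle and pericyte markers 2 higher and 1 lower of 8, mesothelial markers 1 lower of the 3 tested, erythroid markers 2 lower of 5, and of 7 lymphocyte markers 1 was high enough to be tested and was not called. Their summed levels were 519 to 622 CPM in WT IR against 591 to 629 CPM in WT sham (endothelial), 885 to 983 against 920 to 994 CPM (smooth muscle and pericyte), 3.31 to 4.40 against 4.72 to 7.79 CPM (mesothelial), 89.6 to 108 against 84.4 to 140 CPM (erythroid) and 1.12 to 2.31 against 0.859 to 1.10 CPM (lymphocyte). No marker was at 0 counts in all 6 libraries of the WT table. The part of these marker levels in the results above was not tested beyond the scaling given next. When the libraries were scaled by the 22 cardiomyocyte markers in place of TMM, the median of all genes moved to 0.28, all 7 calls lower were lost, and 4 members were called higher (Hsp90b1, Pdia3, Pdia4 and Trib3). Of all genes, 20.2% were called higher and 1.75% lower under this scaling, so that higher calls became more frequent and lower calls rarer over the whole table. Relative to the median of all genes, the class medians by TMM were -0.39 for the cytosolic class, -0.39 for the small heat shock proteins and 0.040 for the ER class. The other scaling moves all genes together and does not bear on these differences. With the GC correction they were -0.29, -0.23 and -0.0061 in the same order.

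The second comparison sets the Zeb2 cTg-labelled libraries against Zeb2 WT IR and asks how injured hearts with this label differ from those of their littermates. All 39 genes were tested. Small heat shock genes Hspb1 and Cryab and the regulator Ddit3 were called higher, and none was called lower (1 at an unadjusted p under 0.05, and 0 by DESeq2 and limma-voom). The 3 calls are 7.69% of the 39, where 3.64% of all 13018 genes tested were called, 2.14% higher and 1.51% lower. The groups did not overlap in 11 of the 39 genes, or 28.2%, near the 26.2% of all genes. The median log2 fold change over the 39 was 0.13, against 0.0059 for all genes tested.

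Hspb1 (chromosome 5, 135887919 to 135889563, plus strand, GRCm38) had 25.1, 14.6 and 28.1 CPM in the Zeb2 cTg-labelled libraries and 9.21, 4.90 and 7.63 CPM in Zeb2 WT IR, so that the lowest of the former exceeded the highest of the latter. It was 3.12-fold higher (log2 fold change 1.64, SE 0.28, edgeR adjusted p = 0.0177). Of its 75-base stretches, 47.3% are shared, most with the pseudogene Hsp25-ps1. Cryab had 369, 279 and 337 CPM against 203, 172 and 192 CPM, 1.74-fold higher (log2 fold change 0.80, SE 0.14, edgeR adjusted p = 0.0193), also with no overlap, and none of its 75-base stretches is shared with another gene. In both genes the lowest library of either group was replicate 2. Hspb2, another muscle small heat shock gene, from the wider list, lies head to head with Cryab on chromosome 9 (Hspb2 50751078 to 50752354, minus strand; Cryab 50751325 to 50756636, plus strand; GRCm38). It had 15.5, 8.47 and 14.4 CPM against 5.17, 3.80 and 4.36 CPM (log2 fold change 1.52, SE 0.24, edgeR adjusted p = 0.0129). The annotated genes overlap on opposite strands, and as the strand setting of the counting is not given in the sources used here, reads of this overlap cannot be assigned with certainty. The other small heat shock genes Hspb3, Hspb6, Hspb7 and Hspb8 had log2 fold changes from 0.040 (Hspb8) to 0.42 (Hspb7) and were not called, and the class median was 0.33.

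Ddit3 (chromosome 10, 127290774 to 127296288, plus strand), which encodes CHOP, a transcription factor of the later ER stress response, had 5.32, 4.43 and 6.88 CPM against 2.71, 2.91 and 2.80 CPM. The Zeb2 WT libraries lay close together and below all 3 of the others, and the gene was 1.98-fold higher (log2 fold change 0.99, SE 0.20, edgeR adjusted p = 0.0317). The other regulators had positive values that did not pass, from 0.036 (Atf4) to 0.56 (Hsf1; SE 0.23, edgeR adjusted p = 0.174). Trib3, called higher after IR in the WT hearts, had 0.29 (SE 0.35, edgeR adjusted p = 0.637) here.

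**Figure D4:**
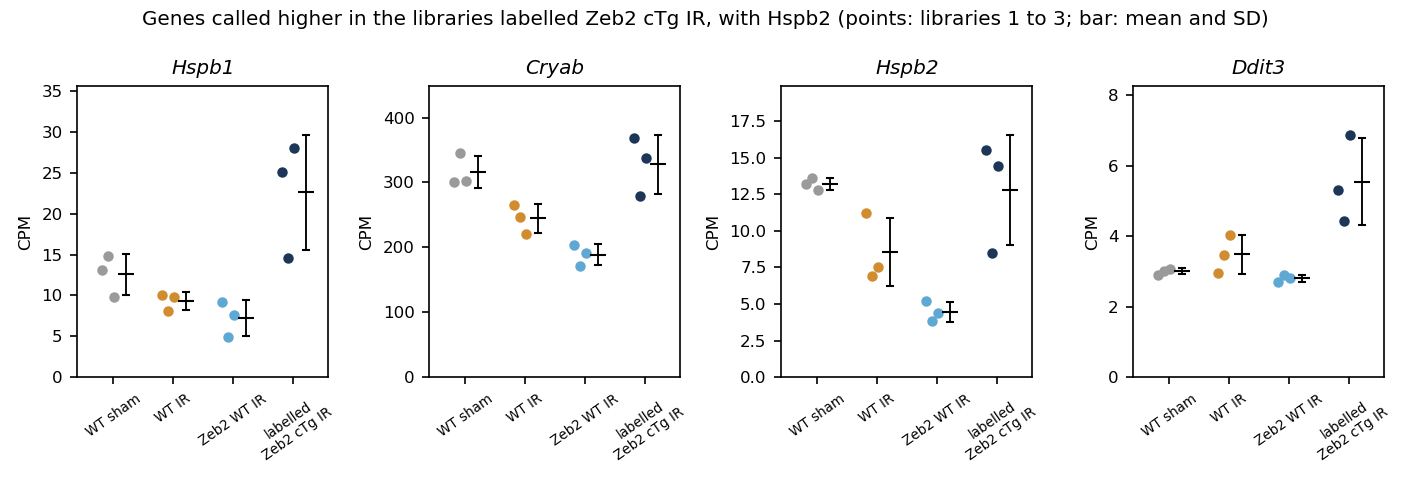
CPM of Hspb1, Cryab, Hspb2 and Ddit3 in all 4 groups; coloured points are the 3 libraries of each group in replicate order, and the black bars are mean and SD. In each panel the Zeb2 cTg-labelled libraries lie above those of Zeb2 WT IR; the WT and Zeb2 groups come from 2 tables that were scaled separately.

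GC content went with this comparison. Across all 12892 genes with a known sequence, the log2 fold change rose with GC content (Spearman's rho 0.55, a description across genes, which are not independent). In WT IR against WT sham it fell with GC content (Spearman's rho -0.29 across 13609 genes). The GC content was 61.7% in Hspb1, 59.6% in Hspb2, 54.4% in Cryab and 45.6% in Ddit3, against a median of 49.3% over the genes of the Zeb2 comparison. With the log2 values corrected for GC content by a smooth fit in each library, Hspb1 was at 1.09 (SE 0.11, edgeR adjusted p = 0.00166), Cryab at 0.56 (SE 0.081, edgeR adjusted p = 0.00634), Ddit3 at 1.16 (SE 0.20, edgeR adjusted p = 0.0128) and Hspb2 at 1.03 (SE 0.11, edgeR adjusted p = 0.00196). The 4 genes stayed called, with smaller values for Hspb1, Cryab and Hspb2 and a larger one for Ddit3, and the median of the small heat shock class went from 0.33 to 0.035.

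The 3 calls also depended on single libraries. Leaving out each library in turn kept the log2 fold change between 1.43 and 1.87 for Hspb1, 0.70 and 0.90 for Cryab, and 0.80 and 1.12 for Ddit3, but the adjusted p passed in 3, 2 and 1 of the 6 fits. In the fits without the Zeb2 cTg-labelled libraries replicate 1 or 3, or without Zeb2 WT IR replicate 3, none of the 3 passed, with adjusted p from 0.0562 to 0.079 for Hspb1, 0.0769 to 0.094 for Cryab and 0.0899 to 0.144 for Ddit3. Without Zeb2 WT IR replicate 2, Cryab and Ddit3 did not pass either (edgeR adjusted p = 0.0566 and 0.0731), and without Zeb2 WT IR replicate 1 Ddit3 did not (0.0694). Of all genes, 0.376% to 0.608% were called higher in the fits without Zeb2 cTg-labelled replicate 1 or 3 or Zeb2 WT IR replicate 3, and 12% without Zeb2 cTg-labelled replicate 2. The 3 genes passed in all 11 other alternatives. Side by side with the WT table, Hspb1 and Cryab were at 22.6 ± 7.09 and 328 ± 45.8 CPM under the cTg label, 12.5 ± 2.54 and 316 ± 25.3 CPM in WT sham, 9.31 ± 1.08 and 245 ± 22.9 CPM in WT IR, and 7.24 ± 2.18 and 189 ± 15.5 CPM in Zeb2 WT IR (mean ± SD, n = 3 in each group). The 2 tables were normalized separately, so no test was made between them.

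No cytosolic chaperone was called in this comparison (5 higher at an unadjusted p under 0.05, DESeq2 called 2 higher and limma-voom 0), but the class had the largest median of the 5 classes, 0.46, and 11 of 12 positive values. These values rested in large part on 1 library, Zeb2 cTg-labelled replicate 2. Hspa1a had 0.251, 4.01 and 0.899 CPM in the Zeb2 cTg-labelled libraries, from 6, 105 and 32 counts, and 0.293, 0.283 and 0.40 CPM in Zeb2 WT IR. Hspa1b had 0.251, 4.24 and 0.449 CPM against 0.367, 0.162 and 0.300 CPM. In both genes replicate 2 stood far above the other 5 libraries, which overlapped, and the log2 fold changes of 2.37 (SE 0.83, edgeR adjusted p = 0.131) and 2.53 (SE 0.98, edgeR adjusted p = 0.162) were 0.87 (edgeR adjusted p = 0.258) and 0.36 (edgeR adjusted p = 0.621) without it. Summed over the pair the log2 fold change was 2.46 (SE 0.87, edgeR adjusted p = 0.131).

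The same library was the highest of the 6 for 9 of the 12 cytosolic genes, where it was highest for 15.6% of all genes tested. Hsph1 had 35.1 CPM there against 12 to 16.8 CPM in the other 5 libraries, Dnaja1 27.6 against 8.25 to 15.8 CPM, and Hsp90aa1, the inducible HSP90, 50.5 against 23.2 to 29.9 CPM. Dnajb1 had 4.99, 13.3 and 8.09 CPM in the Zeb2 cTg-labelled libraries and 4.80, 4.94 and 3.90 CPM in Zeb2 WT IR (log2 fold change 0.95, SE 0.31, edgeR adjusted p = 0.109), and its log2 fold change was 0.53 (edgeR adjusted p = 0.116) without replicate 2. Hspa8 had 282, 419 and 237 CPM against 182, 220 and 223 CPM (log2 fold change 0.59, SE 0.20, edgeR adjusted p = 0.125), and 0.31 (edgeR adjusted p = 0.145) without it; after the GC correction it was called higher at 0.73 (edgeR adjusted p = 0.0328). Hsp90ab1 had 354, 463 and 359 CPM against 352, 264 and 277 CPM (log2 fold change 0.40, SE 0.16, edgeR adjusted p = 0.174), and 0.25 to 0.53 with 1 library left out. For Dnajb1 (nearest libraries 4.99 and 4.94 CPM), Hspa8 and Hsp90ab1, unlike the HSP70 pair, the groups did not overlap. These 3 of 12 genes (25%) are near the 26.2% of all genes. Hspa2 and Hspa4 had 0.37 and -0.016 and were not called. Without Zeb2 cTg-labelled replicate 2, Hsph1, Hsp90aa1 and Dnaja1 were at -0.015, -0.0047 and -0.12 and the class median was 0.22. Bag3 and Dnajb5, which were called lower after IR in the WT hearts, had 0.092 and 0.12 and were not called here.

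**Figure D5:**
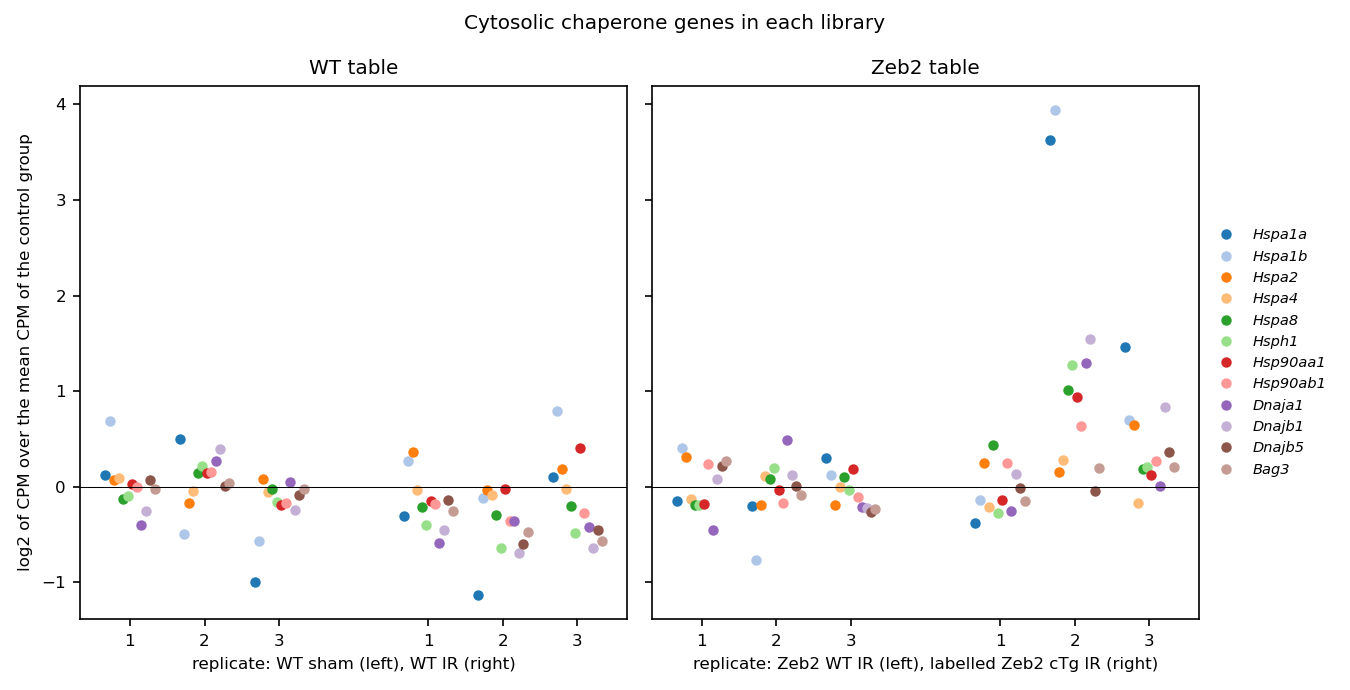
Log2 of the CPM of each of the 12 cytosolic genes in each library over the mean CPM of the control group of its table (WT sham on the left, Zeb2 WT IR on the right); each point is 1 gene in 1 library. Most points lie within 1 log2 unit of 0, and Hspa1a, Hspa1b, Dnajb1, Hsph1, Dnaja1 and, just, Hspa8 lie above 1 in Zeb2 cTg-labelled replicate 2.

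The mitochondrial chaperones were not called (0 of 3, 0 at an unadjusted p under 0.05, and 0 by DESeq2 and limma-voom). Hspa9 had a log2 fold change of -0.21 (SE 0.13, edgeR adjusted p = 0.338) from 242, 288 and 250 CPM against 280, 335 and 288 CPM. Hspd1 had -0.10 (SE 0.14, edgeR adjusted p = 0.706) from 66.2, 82.6 and 64.7 CPM against 67.7, 86.9 and 73.6 CPM. The groups overlapped in both genes, and Hspe1 had -0.0063.

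The 12 ER members gave no call either (1 lower at an unadjusted p under 0.05, and 0 by DESeq2 and limma-voom), with a median of -0.11 and values from -0.45 to 0.31. Hspa5 had 188, 203 and 149 CPM in the Zeb2 cTg-labelled libraries and 188, 188 and 183 CPM in Zeb2 WT IR (log2 fold change -0.051, SE 0.14, edgeR adjusted p = 0.844). Dnajb9, an ER HSP40 that binds IRE1, had the smallest p of the class, with 8.63, 10.7 and 8.76 CPM against 12.1, 15.3 and 11.0 CPM (log2 fold change -0.45, SE 0.16, edgeR adjusted p = 0.143). Canx had 164, 193 and 143 CPM against 194, 238 and 195 CPM (log2 fold change -0.33, SE 0.15, edgeR adjusted p = 0.212). The groups just kept apart in Dnajb9 and Canx and overlapped in Hspa5. Without Zeb2 cTg-labelled replicate 2, Dnajb9 was called lower at -0.56 (edgeR adjusted p = 0.0472) and the disulfide isomerase Pdia3 at -0.50 (edgeR adjusted p = 0.0403). Lower calls became more frequent over the whole table in that fit, at 6.20% of all genes tested against 1.51% with all libraries. The 2 calls are therefore not particular to the ER class. Hspb1, Cryab and Ddit3 stayed called.

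Of the wider list, 2 of 31 cytosolic genes were called higher, Hspbp1 and Dnajb2, and Hspb2 of the 2 other small heat shock genes. Over all genes tested, 2.14% were called higher and 1.51% lower. Hspbp1, which makes HSP70 release its nucleotide, had 4.90, 2.90 and 4.83 CPM against 2.02, 1.34 and 1.43 CPM (log2 fold change 1.40, SE 0.27, edgeR adjusted p = 0.0254; 0.91 after the GC correction, edgeR adjusted p = 0.0104). Dnajb2 had 8.80, 6.34 and 8.51 CPM against 4.99, 3.89 and 4.0 CPM (log2 fold change 0.88, SE 0.18, edgeR adjusted p = 0.0355; 0.50 after the GC correction, edgeR adjusted p = 0.039). In both genes the groups kept apart and replicate 2 was the lowest of the Zeb2 cTg-labelled libraries, the opposite of the inducible HSP70 genes. Neither passed without Zeb2 cTg-labelled replicate 1 or 3 or without Zeb2 WT IR replicate 2 or 3 (edgeR adjusted p = 0.0745 to 0.132 for Hspbp1 and 0.101 to 0.164 for Dnajb2), and Hspb2 did not pass without Zeb2 cTg-labelled replicate 3 (0.0532) or Zeb2 WT IR replicate 3 (0.0672). None of the 12 wider mitochondrial, 28 ER and 23 stress signalling genes tested was called; at an unadjusted p under 0.05 there were 4, 3 and 5 (3 higher and 1 lower, 2 and 1, 3 and 2), limma-voom called 0, and DESeq2 called 2 higher and 1 lower among the stress signalling genes and 0 in the other lists.

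Marker levels differed here too, in a comparison where 2.14% of all genes tested were called higher and 1.51% lower. Of 10 fibroblast markers, 3 were called lower in the Zeb2 cTg-labelled libraries, with a median log2 fold change of -1.35 and a summed level of 562 to 691 CPM against 936 to 2135 CPM. Of 22 cardiomyocyte markers, 2 were called higher, with a median of 0.28 and 72611 to 76769 CPM against 64588 to 68689 CPM. Of the smooth muscle and pericyte markers 1 of 7 tested was higher, and none of the macrophage, endothelial, lymphocyte, mesothelial and erythroid markers was called (macrophage 4, endothelial 5, lymphocyte 0, mesothelial 1 and erythroid 1 at an unadjusted p under 0.05; limma-voom called 0 in each list, and DESeq2 1, 2, 0, 1 and 0). The summed level of the endothelial markers was 456 to 541 CPM against 523 to 583 CPM, and that of the macrophage markers 184 to 212 CPM against 180 to 246 CPM. With scaling by the 22 cardiomyocyte markers, which moved the median of all genes to -0.17, Hspb1 was at 1.46 (edgeR adjusted p = 0.0245), Cryab at 0.62 (edgeR adjusted p = 0.0355) and Ddit3 at 0.81 (edgeR adjusted p = 0.0483), still higher. The part of the other marker levels in these results was not tested.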

How the data were processed

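The authors aligned strand-specific single-end reads of 75 bases with STAR 2.4.2a and deposited whole-number counts per gene (HTSeq 0.6.1, mm10, GENCODE M4), not normalized, in 2 tables of 38293 genes and 6 libraries; tool versions are from the submitters' processing notes, and all columns were used. Groups and replicate numbers came from the labels. Each table was fitted alone with edgeR 4.0.16 under R 4.3.3 (TMM, filterByExpr with minimum count 10 and minimum total count 15, quasi-likelihood test, Benjamini-Hochberg adjustment over all genes tested, threshold 0.05), and CPM are per 1e+06 TMM-scaled counts. SE is the size of the log2 fold change over the square root of F. The test was also run on simulated data with known changes, drawn without the GC trend of the real libraries. Nothing in the results above rests on that run. Within each of the 2 tables, no 2 libraries held counts that differed by sampling noise alone. Libraries of different tables were not compared in this way.

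Symbols, positions and exon lengths are from GENCODE M21 (GRCm38), and promoters from RefSeq (GRCm38.p6). The members and lists were chosen with earlier results of these data known. Values in every library are given for members called in either comparison, for Hspa1a, Hspa1b, Hspa5, Cryab and Hspb1, and for the 2 members with the smallest p in a class without a call; from the wider list, for up to 5 called genes per direction with the smallest p. Library values named for other genes (Hsph1, Dnaja1 and Hsp90aa1 beside the library that stands apart, and Hsp90ab1 in the Zeb2 comparison) and Nupr1 and Creb3l2 were chosen after their values were seen. The alternatives were RLE factors, factors from 22 cardiomyocyte markers, no mitochondrial genes, no filter, at least 10 counts in every library, the replicate number as a block, GC correction (loess, span 0.5), both together, all 12 libraries in 1 fit, DESeq2 1.42.0, limma-voom (limma 3.58.1), and each library left out. Figures were drawn with matplotlib 3.10.9. Where nothing says that libraries of a group are from separate litters or days, p-values measure only the spread between these mice.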

Additional observations from a re-analysis of the deposited data

How the results depend on the processing

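Between 0 and 15 members were called lower and 0 to 3 higher in WT IR against WT sham when 1 library was left out. With cardiomyocyte marker size factors there were 0 lower and 4 higher (1.75% and 20.2% of all genes), with no filter 3 higher (8.60%), and with all 12 libraries in 1 fit 1 lower (3.35%). The replicate numbers were not taken to pair the libraries, since not every same-numbered pair had deviations correlated over 0.1: they were -0.034, 0.012 and -0.015 in the WT table and 0.13, 0.26 and -0.042 in the Zeb2 table, where 0 and 3 of the 6 libraries correlated best with their own number. With the replicate block, 6 members were lower and 1 higher in the former (8.72% and 10.1% of all genes), with Dnajb1 (adjusted p = 0.0562) and Hspb6 (0.0501) no longer called and Dnaja1 (0.0329) called. In the latter the block gave 6 higher and 1 lower, while over all genes it took the higher calls from 2.14% to 8.94% and the lower calls from 1.51% to 4.99%. In that comparison there were 7 higher with no filter (4.65% of all genes), 5 with DESeq2 (5.16%) and 6 with all 12 libraries in 1 fit (8.94%), and with 1 library left out 0 to 3 higher and 0 to 2 lower. The 8 calls of the WT comparison kept their sign in every alternative in which the gene was tested (Trib3 dropped out with at least 10 counts in every library), as did the 3 of the other.

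Class medians of the log2 fold change after IR moved as follows. With cardiomyocyte marker size factors, which move all genes, they were -0.12 (cytosolic), -0.016 (mitochondrial), -0.11 (small heat shock), 0.33 (ER) and 0.37 (regulators). With the GC correction alone, where the median of all genes was -0.075, the mitochondrial median was -0.41, the small heat shock median -0.30 and the ER median -0.081. With the replicate block as well, these class medians were -0.41, -0.30 and -0.085. With 1 library left out they ranged from -0.40 to -0.20 (cytosolic), -0.35 to -0.23 (mitochondrial), -0.44 to -0.30 (small heat shock), -0.036 to 0.10 (ER) and -0.00043 to 0.15 (regulators). In the Zeb2 comparison the small heat shock median was 0.035 with the GC correction and 0.026 with the block as well, the regulators 0.11 and 0.10, and with cardiomyocyte marker size factors the ER median was -0.28 and the regulators 0.048. With 1 library left out they ranged from 0.22 to 0.62, -0.23 to 0.0086, 0.17 to 0.48, -0.25 to -0.014 and 0.14 to 0.31 in the same class order. The cause of these moves was not tested. The sum of Hspa1a and Hspa1b was added after seeing the data.

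In WT IR against WT sham, log2 fold changes that were not called changed sign with cardiomyocyte marker size factors in Hspa4 (0.23), Hspa8 (0.043), Hsp90ab1 (0.0062), Hspe1 (0.14), Hspb7 (0.26), Hspb8 (0.086), Canx (0.22), Manf (0.066), Herpud1 (0.18) and Atf6 (0.16). They changed sign with the GC correction, alone and then with the replicate block, in Hsp90aa1 (-0.069 and -0.079), Hspb7 (0.072 and 0.069), Hsp90b1 (-0.054 and -0.048), Dnajb9 (-0.12), Xbp1 (-0.02 and -0.018) and Pdia6 (-0.0019 with the block only). Leaving out 1 library at a time took these from one side of 0 to the other: Hsp90aa1 -0.093 to 0.19, Hspb7 -0.064 to 0.013, Calr -0.017 to 0.13, Pdia6 -0.018 to 0.15, Creld2 -0.054 to 0.13, Herpud1 -0.31 to 0.067 and Xbp1 -0.064 to 0.07.

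In the Zeb2 cTg-labelled libraries against Zeb2 WT IR, log2 fold changes that were not called changed sign with cardiomyocyte marker size factors in Dnajb5 (-0.052), Bag3 (-0.08), Hspb3 (-0.043), Hspb8 (-0.14), Pdia6 (-0.15), Creld2 (-0.087), Xbp1 (-0.11), Atf4 (-0.13) and Atf6 (-0.015). They changed sign with the GC correction, alone and then with the replicate block, in Hspa4 (0.10), Dnajb5 (-0.12 and -0.11), Bag3 (-0.20 and -0.22), Hspd1 (0.018), Hspe1 (0.15), Hspb6 (-0.054 and -0.035), Hspb8 (-0.10), Hspa5 (0.10), Creld2 (-0.15 and -0.16), Xbp1 (-0.079 and -0.10), Atf4 (-0.23 and -0.27) and Trib3 (-0.13). With no filter, Hspe1 was at 0.0046. With all 12 libraries in 1 fit, Hspe1 was at 0.0081. Leaving out 1 library at a time took these from one side of 0 to the other: Hspa4 -0.20 to 0.068, Hsph1 -0.015 to 0.83, Hsp90aa1 -0.0047 to 0.58, Dnaja1 -0.12 to 0.84, Dnajb5 -0.023 to 0.24, Bag3 -0.015 to 0.25, Hspd1 -0.23 to 0.0086, Hspe1 -0.15 to 0.079, Hspb3 -0.052 to 0.29, Hspb8 -0.081 to 0.12, Hspa5 -0.15 to 0.071, Pdia6 -0.052 to 0.094, Manf -0.29 to 0.10, Creld2 -0.049 to 0.21, Xbp1 -0.032 to 0.13 and Atf4 -0.10 to 0.16.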
